A study of Homo sapiens with 9 samples.

Results

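De novo lipogenesis builds fatty acids from citrate and then esterifies them to glycerol. Its enzymes and regulators were followed here in HepG2 cells labelled as knockdowns of the nuclear receptors HNF4alpha and HNF4gamma. The members are the 10 genes FASN, ACACA, ACLY, SCD, ELOVL6, ME1, GPAM, LPIN1, MLXIPL and SREBF1, named by symbol, out of 19775 genes that the array annotation pairs with at least 1 probe set of their own. Each was represented by its brightest probe set, and 9 of the 10 passed a filter on dim signals that left 13056 genes of the array for testing. ME1 did not pass, so counts of called genes refer to 9 members.

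HepG2 is an established human liver cancer line in which many hepatocyte genes stay active. Total RNA was measured on 9 oligonucleotide arrays with biotin-labelled targets. Knockdown1 (n = 3) and knockdown2 (n = 3) are labelled as combined siRNA knockdowns of HNF4alpha and HNF4gamma, and control (n = 3) as the knockdown control. What sets knockdown1 apart from knockdown2, what the control cells received, when RNA was taken and whether replicates were separate cultures are not in the labels. The p-values therefore rest on array-to-array spread that may be technical. All values come from 1 cell line.

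In liver cells, citrate exported from mitochondria is split to acetyl-CoA by ACLY, carboxylated to malonyl-CoA by ACACA and assembled into palmitate by FASN, with NADPH partly from ME1. ELOVL6 lengthens palmitate, SCD introduces the first double bond, GPAM attaches the first acyl chain to glycerol-3-phosphate, and LPIN1 makes the diacylglycerol from which triglyceride is built. SREBF1, which encodes SREBP-1, and MLXIPL, which encodes the carbohydrate-responsive factor ChREBP, are the main transcriptional activators of this pathway, downstream of insulin, liver X receptors and glucose.

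Promoter windows are shown for the 4 members with the clearest differences, since SCD and LPIN1 were lower in both knockdowns while ELOVL6 and GPAM were each lower in 1 of them. Each window runs from 250 bases before to 50 bases after an annotated start (RefSeq, GRCh38.p14), 5′ to 3′ on the gene's strand. Capitals mark the NF-Y box CCAAT or its reverse ATTGG, and the Sp1 box GGGCGG or its reverse CCGCCC. SCD lies at chr10:100346983-100347282 (plus strand), ELOVL6 at chr4:110198566-110198865 (minus strand), GPAM at chr10:112183716-112184015 (minus strand) and 1 of the 3 listed starts of LPIN1 at chr2:11746382-11746681 (plus strand).
SCD: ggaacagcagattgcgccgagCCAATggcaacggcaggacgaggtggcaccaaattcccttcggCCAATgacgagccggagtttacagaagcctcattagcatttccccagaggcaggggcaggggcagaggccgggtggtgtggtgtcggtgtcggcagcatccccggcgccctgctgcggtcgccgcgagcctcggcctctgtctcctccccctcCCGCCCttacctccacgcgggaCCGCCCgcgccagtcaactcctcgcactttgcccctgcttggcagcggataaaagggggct
ELOVL6: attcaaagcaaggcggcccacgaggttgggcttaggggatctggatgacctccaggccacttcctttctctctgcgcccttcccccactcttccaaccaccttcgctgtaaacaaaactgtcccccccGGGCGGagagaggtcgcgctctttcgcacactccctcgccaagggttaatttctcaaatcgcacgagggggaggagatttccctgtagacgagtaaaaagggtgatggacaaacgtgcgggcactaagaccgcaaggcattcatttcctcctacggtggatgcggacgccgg
GPAM: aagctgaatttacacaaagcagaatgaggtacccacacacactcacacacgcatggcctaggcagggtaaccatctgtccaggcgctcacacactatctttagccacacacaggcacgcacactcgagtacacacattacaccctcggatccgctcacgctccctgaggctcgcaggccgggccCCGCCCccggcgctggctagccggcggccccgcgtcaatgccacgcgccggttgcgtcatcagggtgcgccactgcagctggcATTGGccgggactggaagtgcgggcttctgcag
LPIN1: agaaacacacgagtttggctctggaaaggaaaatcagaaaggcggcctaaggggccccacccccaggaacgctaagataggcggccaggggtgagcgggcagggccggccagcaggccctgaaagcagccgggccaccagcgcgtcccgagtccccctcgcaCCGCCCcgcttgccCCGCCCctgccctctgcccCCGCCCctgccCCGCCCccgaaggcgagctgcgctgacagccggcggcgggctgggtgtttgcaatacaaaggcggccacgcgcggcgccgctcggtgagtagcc
The SCD window holds 2 NF-Y boxes, the GPAM window holds 1, and the ELOVL6 window and the LPIN1 window hold 0. The LPIN1 window shown holds 4 Sp1 boxes, the most of its 3 starts, and those at its other starts hold 0 and 1. The RefSeq table has 14 windows for 9 of the 10 members and none for FASN. ACACA, ACLY and LPIN1 have several windows each, and those of ACLY overlap, so the windows are not independent. An NF-Y box was found in 6 of the 14, against 34.6% of all 35116 windows. The Sp1 box was in 12 of the 14, against 45.0% of all windows. Member windows were often rich in G and C (45.3% to 82.3%, against a median of 58.7% over all windows). The SREBP site core TCACNCCAC, the E-box CACGTG, the HNF4 site CAAAGTNCA and a direct repeat 1 element, searched on both strands, were in 0 of the 14 windows, and they occur in 1.13%, 7.26%, 1.10% and 0.0228% of all windows. A match is a description of letters and not a site, and the windows cover only the bases next to each start.

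Signals are linear intensities, each array multiplied by a factor of 0.898 to 1.15 to a common median of 14.1, and differences are limma estimates of log2(signal + 1.41), called at an adjusted p under 0.05 over all 13056 genes. Arrays of 1 group correlated at 0.973 to 0.978 over the tested genes. The targeted gene HNF4G gave a signal of 18.5 ± 4.66 in knockdown1, 31.6 ± 9.14 in knockdown2 and 46.0 ± 1.65 in control (SD, n = 3 each), and HNF4A was not analysed here. Its knockdown1 difference in the limma fit over all probe sets was -1.28 (SE 0.26, adjusted p = 8.38e-04), which passed, and its knockdown2 difference did not pass (-0.56, SE 0.26, adjusted p = 0.138). A dimmer HNF4G probe set fell in both (-2.20, adjusted p = 0.0295, and -2.48, adjusted p = 0.0173). That probe set gave 1.98 to 12.7 in knockdown1, 1.04 to 13.3 in knockdown2 and 21.3 to 37.5 in control. Only the 3 control arrays exceeded their array's median. It thus passed the filter on dim signals through control alone, and its fall is no independent check. All 10 hepatocyte markers were measured. Of these, 4 were lower in knockdown1 and 3 in knockdown2 than in control, against 19.0% and 13.9% of all tested genes, and 0 were higher in either. Their summed signal was 38107 to 46338 in knockdown1, 42263 to 45618 in knockdown2 and 44535 to 53413 in control. The adipocyte markers ADIPOQ, PLIN1, LEP and FABP4 averaged below the array median of 14.1 in every group. The summed signal of all 6 adipocyte markers was 64.0 to 74.9 in knockdown1, 60.0 to 66.1 in knockdown2 and 319 to 381 in control. That difference lay in CIDEC, a lipid droplet gene (32.0 in knockdown1, 30.5 in knockdown2 and 313 in control), while LIPE gave 18.3 in knockdown1, 9.90 in knockdown2 and 9.64 in control. In bulk RNA, fewer cells of a type and less RNA per cell cannot be told apart. Of 10 proliferation markers, 10 were lower in knockdown1 and 3 in knockdown2 than in control, and their summed signal was 3493 to 4352 in knockdown1, 9378 to 10173 in knockdown2 and 10383 to 13648 in control. The part of this shift in the values that follow was not tested.

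Over both knockdowns against control, 5 of the 9 measured members fell and 0 rose, against 17.9% of all tested genes called lower and 14.7% called higher (32.6% either way). The arrays of 2 members lay wholly below control and those of 0 above it, against 11.2% and 9.76% of all genes (20.9% either way). The median log2 difference of the 9 members was -0.46, against -0.01 for all tested genes. In knockdown1, 4 members fell and 0 rose, with 19.0% of all genes called lower and 14.3% higher (33.3% either way). The arrays of 4 members lay wholly below control and of 0 above, against 21.7% and 18.1% of all genes (39.8% either way). In knockdown2, 3 fell and 0 rose, with 13.9% of all genes called lower and 13.7% higher (27.6% either way). The arrays of 3 members lay wholly below control and of 0 above, against 19.8% and 19.9% of all genes (39.7% either way). The members' medians were -0.39 in knockdown1 and -0.13 in knockdown2. Both comparisons use the same 3 control arrays. The background depends on the array scaling, since with signals as deposited 3105 genes were higher and 2628 lower in knockdown1, against 1866 higher and 2485 lower here.

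**Figure D1:**
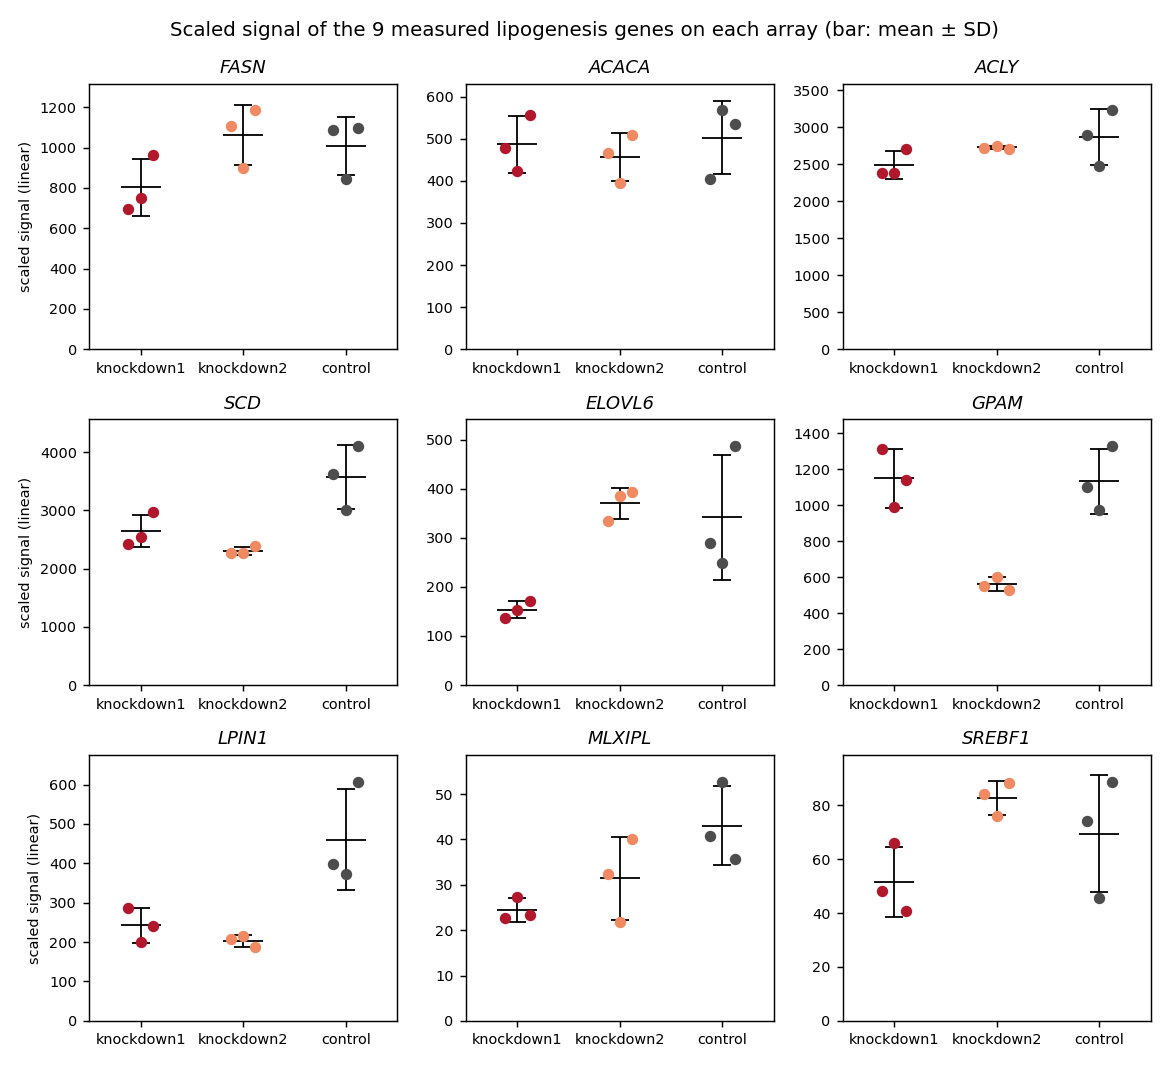
Scaled signal (linear axis from 0, arbitrary units) of each measured member on every array, as points by group with knockdown1 and knockdown2 left of control, and a bar for the mean ± SD of 3 arrays. SCD and LPIN1 lie below control in both knockdowns, ELOVL6 lies low in knockdown1 (136 to 171) and GPAM lies low in knockdown2 (530.1 to 602).

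SCD, the stearoyl-CoA desaturase that makes oleate, was lower in both knockdowns. Its signal was 2425, 2547 and 2964 in knockdown1, 2272, 2259 and 2384 in knockdown2, and 3616, 3002 and 4104 in control. All 6 knockdown arrays lay below the 3 control arrays, although the highest knockdown1 array came close to the lowest control array. SCD fell by 0.43 on the log2 scale in knockdown1 (SE 0.13, limma adjusted p = 0.0126) and by 0.62 in knockdown2 (SE 0.13, limma adjusted p = 6.30e-04). The call in knockdown1 ended without knockdown1 replicate 1 (adjusted p = 0.0738), control replicate 1 (0.0542) or control replicate 3 (0.0504) and without the variance trend (0.0604), while the value ran from -0.60 to -0.27 over all alternatives, the smallest under quantile normalization. The 3 further SCD probe sets, in a fit over all probe sets, fell by 0.54 to 0.74 in knockdown1 and by 0.79 to 1.00 in knockdown2, and each passed in both. The brightest probe set thus gave the smallest difference of the 4. Knockdown1 minus knockdown2 was 0.19 (95% interval -0.08 to 0.46, adjusted p = 0.314). That difference passed with signals as deposited (0.31, adjusted p = 7.49e-04), with quantile normalization (0.37, adjusted p = 4.63e-05) and with arrays centred on the tested genes (0.24, adjusted p = 0.00669).

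LPIN1, the phosphatidate phosphatase lipin 1, showed the largest fall among the measured members over both knockdowns (-1.02, SE 0.15, limma adjusted p = 4.53e-06). Its signal was 287, 199 and 241 in knockdown1, 207, 214 and 186 in knockdown2, and 397, 374 and 607 in control. The knockdown arrays did not overlap with control, and control replicate 3 was the highest. LPIN1 fell by 0.90 in knockdown1 (SE 0.17, limma adjusted p = 1.64e-04) and by 1.14 in knockdown2 (SE 0.17, limma adjusted p = 9.76e-06). Over all alternatives the fall over both knockdowns ran from -1.15 to -0.72 and passed in each. The dimmer probe sets gave -0.70 and -0.46 over both knockdowns, and both passed. The faintest of the 3 did not pass in knockdown1 alone (-0.40, adjusted p = 0.0747). The knockdowns differed from each other by 0.24 (95% interval -0.11 to 0.60, adjusted p = 0.341).

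ELOVL6, the elongase that extends palmitate to stearate, was lower in knockdown1 and not in knockdown2. Its signal was 136, 153 and 171 in knockdown1, 334, 385 and 393 in knockdown2, and 289, 249 and 487 in control. The knockdown1 arrays lay below all other arrays, and the knockdown2 arrays lay within the control range. ELOVL6 fell by 1.09 in knockdown1 (SE 0.18, limma adjusted p = 2.95e-05), a 2.13-fold difference. In knockdown2 the difference from control was 0.17 (95% interval -0.21 to 0.55, adjusted p = 0.546). The direct test between the knockdowns gave -1.27 (SE 0.18, limma adjusted p = 5.27e-06), and this passed in all 30 alternatives (-1.35 to -1.08). Both further probe sets were also lower in knockdown1, with -1.06 and -0.96 against control and -1.48 and -1.31 between the knockdowns, all past the threshold. In knockdown2 they gave 0.43 and 0.35 against control, and neither passed (adjusted p = 0.0652 and 0.419). On the brighter of them the knockdown2 arrays (159 to 166) lay above control (104 to 149), unlike on the representative. Averaging the knockdowns (-0.46, adjusted p = 0.0277) joins unlike groups, and without control replicate 3 that average was -0.17 (adjusted p = 0.331). Without the same array ELOVL6 passed as higher in knockdown2 (0.46, adjusted p = 0.0166).

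GPAM, the mitochondrial glycerol-3-phosphate acyltransferase, showed the opposite split. Its signal was 1314, 989.8 and 1141 in knockdown1, 552, 602 and 530.1 in knockdown2, and 1101, 971 and 1328 in control. The knockdown2 arrays lay below all others, and the knockdown1 arrays overlapped with control. GPAM fell by 1.00 in knockdown2 (SE 0.15, limma adjusted p = 5.22e-06), while the knockdown1 difference was 0.02 (95% interval -0.28 to 0.32, adjusted p = 0.931). Knockdown1 minus knockdown2 was 1.02 (SE 0.15, limma adjusted p = 3.69e-06) and passed in all 30 alternatives (0.92 to 1.20). A dimmer GPAM probe set gave -0.71 in knockdown2, 0.25 in knockdown1 (adjusted p = 0.185) and 0.96 between them.

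**Figure D2:**
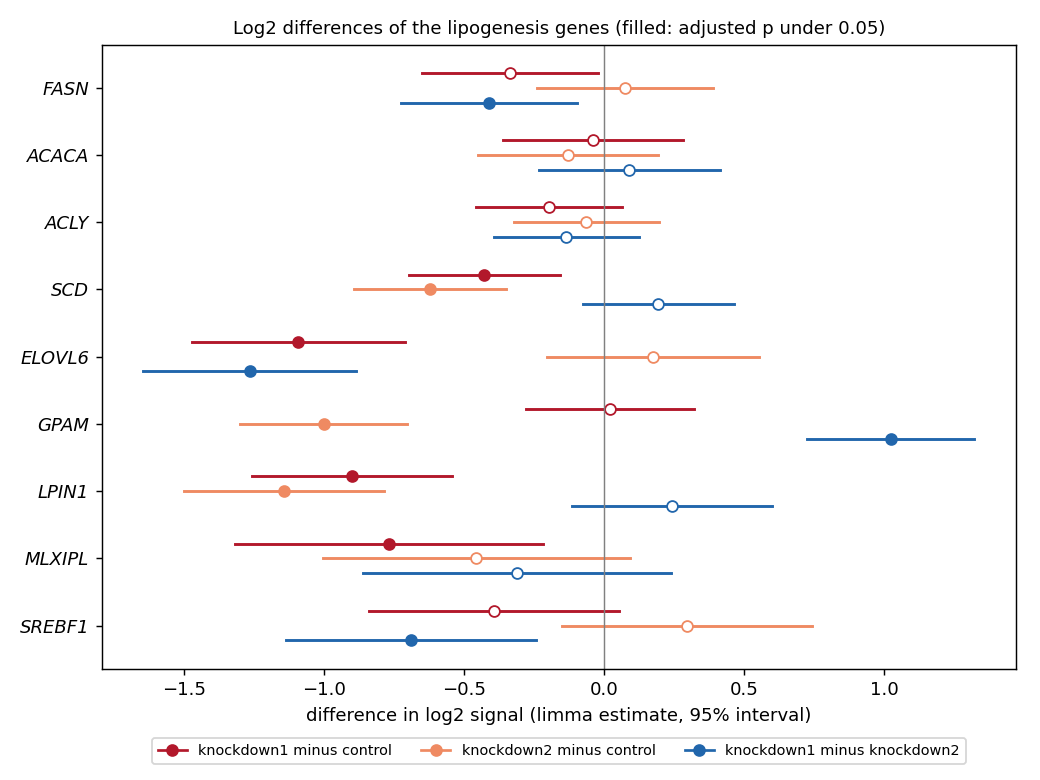
Difference in log2 signal (horizontal axis, limma estimate as a point with its 95% interval as a line) for each measured member in knockdown1 minus control, knockdown2 minus control and knockdown1 minus knockdown2, with filled points for an adjusted p under 0.05. ELOVL6 and GPAM differ between the knockdowns in opposite directions (-1.27 and 1.02), and SCD and LPIN1 lie below 0 in both comparisons with control.

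None of the enzymes of the first 3 steps passed against control in either knockdown. FASN, the fatty acid synthase, gave 696, 748 and 963 in knockdown1, 1105, 899.8 and 1185 in knockdown2, and 1088, 844 and 1097 in control, and the groups overlapped. Its difference from control was -0.33 in knockdown1 (95% interval -0.65 to -0.02, adjusted p = 0.0957) and 0.08 in knockdown2 (95% interval -0.24 to 0.39, adjusted p = 0.776). The FASN difference in knockdown1 passed in 5 of 30 alternatives, among them leaving out control replicate 2 (-0.46, adjusted p = 0.0213). FASN was lower in knockdown1 than in knockdown2 (-0.41, SE 0.15, limma adjusted p = 0.0477), close to the threshold. Of 30 alternatives 12 ended that call, among them leaving out knockdown1 replicate 1 (-0.32, adjusted p = 0.226) or knockdown2 replicate 3 (-0.33, adjusted p = 0.222). In the fit over all probe sets the same FASN difference missed the threshold (adjusted p = 0.0612), and its second probe set lay below the filter on dim signals.

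ACACA, acetyl-CoA carboxylase 1, ranged over 425 to 558 in knockdown1, 396 to 508 in knockdown2 and 405 to 568 in control. No ACACA difference passed in any alternative, and the 95% interval was -0.36 to 0.28 in knockdown1 and -0.45 to 0.19 in knockdown2. ACLY, ATP citrate lyase, ranged over 2378 to 2708 in knockdown1, 2706 to 2754 in knockdown2 and 2479 to 3234 in control. Its intervals were -0.46 to 0.06 in knockdown1 and -0.32 to 0.20 in knockdown2, and the 2 further ACLY probe sets gave 0.02 and -0.06 in knockdown1 and 0.01 and -0.02 in knockdown2. Only quantile normalization called ACLY, as lower in knockdown2 (-0.12, adjusted p = 0.0388). These intervals do not show that either gene was unaffected.

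ME1, the cytosolic malic enzyme, could not be measured. Its 3 probe sets averaged 0.282 to 6.93 in knockdown1, 1.59 to 7.95 in knockdown2 and 1.07 to 5.23 in control, all below the array median of 14.1, and none exceeded its array's median on any of the 9 arrays.

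Both transcriptional regulators were dim. SREBF1 gave 48.1, 66.0 and 40.8 in knockdown1, 84.1, 76.0 and 88.3 in knockdown2, and 74.1, 45.7 and 88.7 in control. The 2 knockdowns did not overlap with each other, and the control arrays overlapped with both. SREBF1 was lower in knockdown1 than in knockdown2 (-0.69, SE 0.22, limma adjusted p = 0.0182), whereas its difference from control passed in neither knockdown1 (-0.39, adjusted p = 0.174) nor knockdown2 (0.30, adjusted p = 0.352). Without control replicate 2, its lowest control array, the knockdown1 difference passed (-0.66, adjusted p = 0.0147). Of 30 alternatives 12 ended the call between the knockdowns, for example leaving out knockdown1 replicate 3 (-0.54, adjusted p = 0.109), knockdown1 replicate 1 (-0.66, adjusted p = 0.0554) or knockdown2 replicate 3 (-0.64, adjusted p = 0.0558). A second SREBF1 probe set had 7.14 to 10.2 in knockdown1, 20.3 to 24.5 in knockdown2 and 6.96 to 32.7 in control, the same order of the knockdowns, and missed the threshold (-1.29, adjusted p = 0.0770). It exceeded its array's median on only 4 arrays, those of knockdown2 and control replicate 1. It passed the filter on dim signals through these arrays, so its order is no independent check. The files do not say which SREBP-1 transcripts these probe sets match.

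MLXIPL has a single probe set, which gave 22.7, 27.4 and 23.3 in knockdown1, 32.5, 21.9 and 40.1 in knockdown2, and 40.8, 52.7 and 35.7 in control. The knockdown1 arrays lay below control and the knockdown2 arrays overlapped with it. MLXIPL fell by 0.77 in knockdown1 (SE 0.27, limma adjusted p = 0.0268) and by 0.61 over both knockdowns (SE 0.23, limma adjusted p = 0.0430), and its knockdown2 value was -0.46 (adjusted p = 0.225). The knockdown1 call ended in 15 of 29 alternatives and the call over both knockdowns in 17 of 28, among them filter, scaling and single-array removals. With signals as deposited both calls ended (adjusted p = 0.0613 and 0.0665). They also ended without control replicate 2 (-0.62, adjusted p = 0.119, and -0.46, adjusted p = 0.203), the brightest control array for this gene, and were -0.45 and -0.35 without that array on signals as deposited. A signal of at least 50 in 3 arrays was not reached, so MLXIPL drops out under the stricter filter.

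Between the knockdowns, 3 members were lower in knockdown1 (ELOVL6, SREBF1 and FASN) and 1 was higher (GPAM), against 16.1% of all tested genes called lower and 10.5% higher (26.6% either way). The arrays did not overlap for 2 lower and 2 higher members, against 24.8% and 18.9% of all genes (43.7% either way). With signals as deposited the split of all genes was 2803 higher and 2104 lower, against 1368 higher and 2105 lower here. On that scale 6 members differed, with SCD and LPIN1 higher in knockdown1 besides GPAM.

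**Figure D3:**
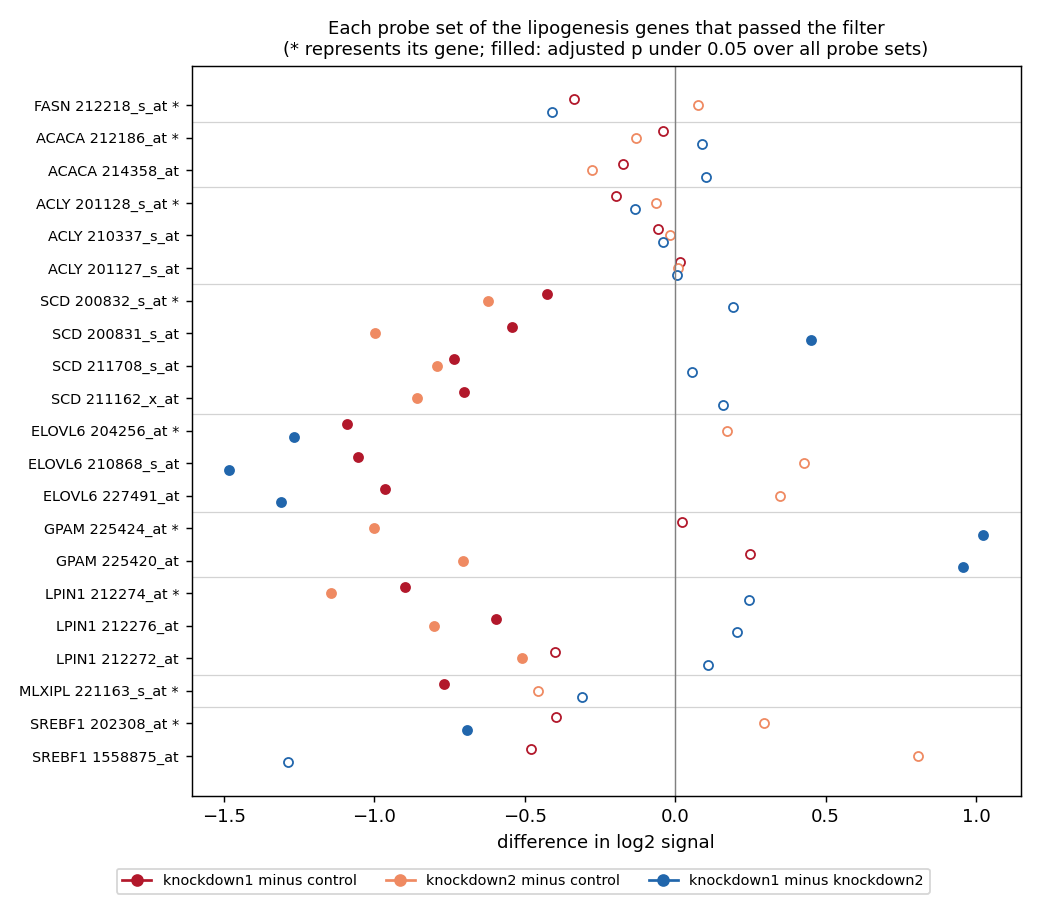
Difference in log2 signal (horizontal axis) for each of the 21 member probe sets that passed the filter, with 3 points a row for knockdown1 minus control, knockdown2 minus control and knockdown1 minus knockdown2, filled for an adjusted p under 0.05 over all probe sets, and an asterisk at the probe set that represents its gene. The probe sets of SCD, ELOVL6, GPAM and LPIN1 lie on the same side of 0 as their representative in every comparison with control that passed.

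Of the members' 12 further probe sets that passed the filter, 10 had the sign of the representative over both knockdowns, 11 in knockdown1, 11 in knockdown2 and 11 between the knockdowns. None of those with the opposite sign passed.

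Of 86 further genes in 7 lists around the pathway, 74 were tested. Over both knockdowns 28 were called lower and 12 higher, in knockdown1 31 lower and 11 higher, and in knockdown2 24 lower and 12 higher. As shares of the 74 these are 37.8% lower and 16.2% higher over both knockdowns, against 17.9% and 14.7% of all tested genes, 41.9% and 14.9% in knockdown1, against 19.0% and 14.3%, and 32.4% and 16.2% in knockdown2, against 13.9% and 13.7%. The shares called higher were thus near those of the whole array. Members and lists were chosen with earlier results of these data known, so their shares called lower are a description and not a test. The clearest shift lay in the list for the supply of citrate, acetyl-CoA and NADPH, where 8 of 11 tested genes fell and 1 rose over both knockdowns, which is 72.7% lower against 17.9% of all genes, with a median of -0.47 against -0.01 for all genes. SLC13A5, which imports citrate across the plasma membrane, averaged 49.4 ± 10.9 in knockdown1, 55.9 ± 8.98 in knockdown2 and 451 ± 56.3 in control (SD, n = 3 each), and fell by 3.08 over both knockdowns (SE 0.15, limma adjusted p = 1.32e-14). SLC25A1, the mitochondrial citrate exporter, fell by 0.82 (SE 0.13, limma adjusted p = 1.99e-05), and PC, pyruvate carboxylase, fell by 1.00 (SE 0.13, limma adjusted p = 7.33e-07). The gene that rose was ME2, a mitochondrial malic enzyme (0.52, adjusted p = 0.00458). CS, citrate synthase, fell in knockdown2 (-0.76, adjusted p = 1.00e-04), did not pass in knockdown1 (-0.18, adjusted p = 0.334) and was higher in knockdown1 than in knockdown2 (0.58, adjusted p = 0.00205), and the transketolase gene TKT was lower (-0.50, adjusted p = 0.00430). Another TKT probe set rose over both knockdowns (0.73, adjusted p = 7.85e-04) where the representative gave -0.04.

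Among genes of chain elongation, desaturation and acetate activation, 4 of 14 tested fell and 2 rose (28.6% and 14.3%, against 17.9% and 14.7% of all genes, median -0.15). ELOVL2, an elongase of polyunsaturated fatty acids, averaged 329.8 in knockdown1, 270.1 in knockdown2 and 1302 in control, and fell by 2.11 (SE 0.13, limma adjusted p = 9.77e-13). ACSS2, which makes acetyl-CoA from acetate, fell by 1.78 in knockdown1 and by 0.89 in knockdown2, and the difference between them passed (-0.90, SE 0.16, limma adjusted p = 8.62e-05). FADS2, the delta-6 desaturase, fell over both knockdowns (-0.94, adjusted p = 0.0139) and was lower in knockdown1 than in knockdown2 (-1.29, adjusted p = 0.00478). Its knockdown2 difference from control did not pass (-0.29, adjusted p = 0.580). FADS2 was dim, at 5.92, 16.7 and 26.3 in knockdown1. Its call over both knockdowns ended in 7 of 28 alternatives, 5 of them the removal of 1 array. The call between the knockdowns ended in 2 of 29. ELOVL7 fell by 0.75 (adjusted p = 4.85e-04). SCD5 and FADS3 rose (0.60, adjusted p = 0.0441, and 0.51, adjusted p = 0.0190). SCD5 is a second human stearoyl-CoA desaturase, and its call ended in 18 of 28 alternatives, 13 of them the removal of 1 array. In knockdown1 neither passed (SCD5 0.42, adjusted p = 0.235, and FADS3 0.34, adjusted p = 0.183).

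Among genes of glycerolipid synthesis, 5 of 11 tested fell and 1 rose (45.5% and 9.09%, against 17.9% and 14.7% of all genes, median -0.26). GPD1, which makes glycerol-3-phosphate, fell by 2.45 (SE 0.38, limma adjusted p = 1.11e-05), with a mean control signal of only 52.9. MOGAT2 fell by 1.72, DGAT1 by 1.24, DGAT2 by 1.12 and AGPAT5 by 0.68. A further AGPAT5 probe set gave -1.61 over both knockdowns. Between the knockdowns it gave -1.17 (adjusted p = 4.46e-04), where the representative gave -0.16. DGAT2 was lower in knockdown1 than in knockdown2 (-1.05, SE 0.15, limma adjusted p = 2.34e-06), as was LPIN2 (-0.81, adjusted p = 7.84e-05), a paralog of LPIN1. GPAT3, an acyltransferase of the endoplasmic reticulum that catalyses the same step as GPAM, rose by 0.54 in knockdown1 and by 1.03 in knockdown2 (adjusted p = 0.00789 and 8.60e-06), and it was lower in knockdown1 than in knockdown2 (-0.49, adjusted p = 0.0184), a call that ended in 8 of 30 alternatives. GPAM thus had its low signal in the knockdown in which GPAT3 had its higher one.

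**Figure D4:**
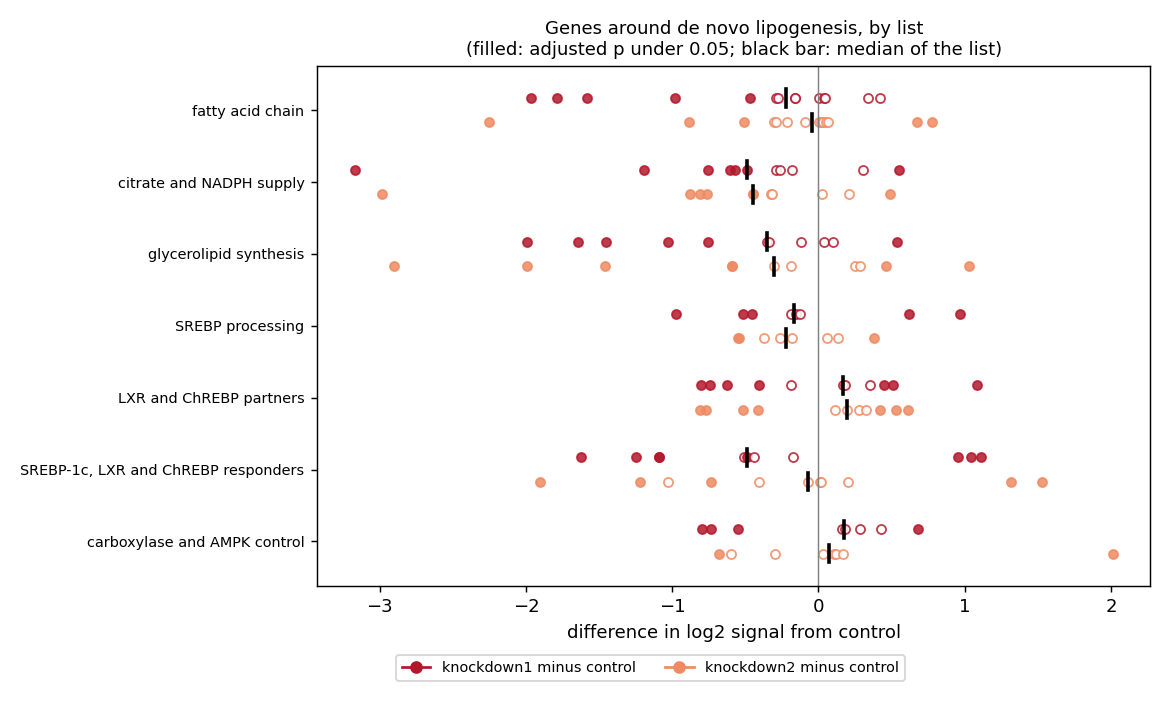
Difference in log2 signal from control (horizontal axis) for the tested genes of each list, with knockdown1 above knockdown2 in each row, filled points for an adjusted p under 0.05 and a black bar at the list's median. The citrate and NADPH list has medians of -0.49 in knockdown1 and -0.44 in knockdown2, and SLC13A5 lies furthest left at -3.17 and -2.99.

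The machinery that matures SREBP moved both ways, with 2 of 8 tested genes lower and 2 higher over both knockdowns (25.0% each way, against 17.9% lower and 14.7% higher of all genes). MBTPS1 and MBTPS2 encode the site-1 and site-2 proteases that release active SREBP. MBTPS1 rose (0.67, SE 0.12, limma adjusted p = 9.38e-05) and MBTPS2 fell (-0.76, SE 0.13, limma adjusted p = 5.53e-05), each by more in knockdown1 than in knockdown2 (difference 0.59, adjusted p = 0.00257, and -0.43, adjusted p = 0.0412), and the MBTPS2 call ended in 9 of 30 alternatives. SREBF2, which encodes SREBP-2, fell by 0.53 (adjusted p = 0.00390), and INSIG2, which retains SREBP in the endoplasmic reticulum, rose in knockdown1 (0.62, adjusted p = 0.00149), did not pass in knockdown2 (0.13, adjusted p = 0.569) and was higher in knockdown1 than in knockdown2 (0.49, adjusted p = 0.0136). RNF139 was lower in knockdown1 than in knockdown2 (-0.52, adjusted p = 0.00751).

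Of 11 tested factors that act with or upstream of SREBP-1c and ChREBP, 3 fell and 1 rose (27.3% and 9.09%, against 17.9% and 14.7% of all genes). NR1H3, the liver X receptor alpha gene, fell by 0.41 (adjusted p = 0.0184), its heterodimer partner RXRA by 0.81 (adjusted p = 1.49e-04) and the NF-Y subunit gene NFYC by 0.76 (adjusted p = 5.94e-05). NFYA rose by 0.75 (adjusted p = 1.55e-05). NFYB was lower (-0.91, adjusted p = 2.22e-04) and RXRB higher (1.03, adjusted p = 5.43e-06) in knockdown1 than in knockdown2. Further NFYB probe sets gave smaller differences between the knockdowns (-0.28, -0.59 and -0.31), and only -0.59 passed (adjusted p = 0.0297). That probe set also fell over both knockdowns (-0.86, adjusted p = 5.35e-04), where the NFYB representative gave -0.17. A second RXRB probe set rose over both knockdowns (0.48, adjusted p = 0.0338) where the representative gave 0.00.

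Genes known to respond to SREBP-1c, liver X receptors or ChREBP did not move as 1 group, with 4 of 11 tested lower and 3 higher over both knockdowns (36.4% and 27.3%, against 17.9% and 14.7% of all genes). PKLR, liver pyruvate kinase and a ChREBP target, fell by 1.50 over both knockdowns (SE 0.34, limma adjusted p = 0.00109). Its 2 dimmer probe sets gave -3.76 and -3.39, and its call in knockdown1 alone (-1.09, adjusted p = 0.0341) ended in 18 of 29 alternatives. Also lower were the triokinase gene TKFC (-1.16), the cholesterol exporter gene ABCA1 (-1.18) and PNPLA3, an acyl hydrolase gene (-1.14). TXNIP, a ChREBP-responsive arrestin gene, rose over both knockdowns (1.24, adjusted p = 7.54e-08), as did MYLIP, an LXR target that degrades the LDL receptor (1.21, adjusted p = 1.28e-07). The related ARRDC4 rose in knockdown1 (1.04, adjusted p = 2.38e-04), while in knockdown2 its difference was 0.02 (adjusted p = 0.965). ABCA1 was lower in knockdown1 than in knockdown2 (-0.89, adjusted p = 9.06e-06), and ARRDC4 was higher (1.02, adjusted p = 4.05e-04). The PNPLA3 call passed in knockdown1 (-1.25, adjusted p = 0.0136) and narrowly not in knockdown2 (-1.03, adjusted p = 0.0504). PNPLA3 was dim, averaging 13.0 in knockdown1, 15.2 in knockdown2 and 32.0 in control, near the array median of 14.1. Its call in knockdown1 ended in 6 of 29 alternatives and that over both knockdowns in 2 of 28.

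Of 8 tested genes in the list around acetyl-CoA carboxylase and the AMP-activated kinase, 2 fell and 2 rose over both knockdowns (25.0% each way, against 17.9% lower and 14.7% higher of all genes). Among the 8, MLYCD encodes malonyl-CoA decarboxylase, which is not part of the kinase. PRKAA2, the alpha2 catalytic subunit gene, averaged 78.9 ± 9.15 in knockdown1, 288 ± 30.2 in knockdown2 and 70.9 ± 14.0 in control (SD, n = 3 each). It rose by 2.01 in knockdown2 (SE 0.17, limma adjusted p = 4.37e-10), and knockdown1 minus knockdown2 was -1.85 (SE 0.17, limma adjusted p = 1.83e-09). Further PRKAA2 probe sets gave smaller differences between the knockdowns (-0.84, -1.62, -0.75 and -0.21), and -0.21 did not pass (adjusted p = 0.498). Over both knockdowns they rose by 1.20 to 1.48, against 1.09 for the representative. With the mean over its probe sets PRKAA2 passed as higher in knockdown1 too (0.80, adjusted p = 3.76e-04), against 0.16 for the representative. A rise in knockdown2 alone thus rests on the representative. PRKAA1, the alpha1 subunit gene, was lower in knockdown1 than in knockdown2 (-0.91, adjusted p = 2.93e-04). Further PRKAA1 probe sets gave smaller differences (-0.44, -0.54 and -0.16), and only -0.44 passed (adjusted p = 0.0281). PRKAB1 and PRKAB2 fell by 0.61 and 0.52 over both knockdowns (adjusted p = 3.79e-04 and 0.00117), though PRKAB2 did not pass in knockdown2 alone (-0.30, adjusted p = 0.113). PRKAG1 rose in knockdown1 (0.68, adjusted p = 8.61e-04) and did not pass in knockdown2 (0.03, adjusted p = 0.906). Its difference between the knockdowns was 0.64 (adjusted p = 0.00192) and passed in all 30 alternatives, whereas its call over both knockdowns ended in 8 of 29. The genes ELOVL7, FADS3, AGPAT5, NR1H3, TKFC and PNPLA3 were named after their values were seen.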

How the data were processed

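RNA of 9 HepG2 arrays was analysed in 3 groups taken from the sample titles. The deposited values are linear intensities that the authors made with MAS5, per the submitters' processing notes, and its version is not stated there. Their trimmed mean (2% at each end) is 100.0 on every array. Array medians differed by 1.28 times and 75th percentiles by 1.06 times, so scaling to the common median adds spread to bright genes, and signals as deposited are given as an alternative. No detection calls or depth come with such values, and the number of arrays limits the precision.

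Probe sets of 1 gene symbol (41091 of 54675, with 1801 of several, 11721 of none and 62 controls) were kept if above their array's median in at least 3 arrays, and a gene took its brightest one. The platform annotation named them, and 0 symbols needed an update. Tests used limma 3.58.1 in R 4.3.3 with 1 fit of 3 groups, a variance trend and two-sided Benjamini-Hochberg adjustment, and the fit was tested on simulated data, where recovery of large changes varied with the genes that carried them and missed the mark set for it in 1 of 2 assignments. No 2 arrays of a group shared over 1.37% of values. The named genes were all members, HNF4G, and from each list the 3 called genes with the largest change over both knockdowns, 1 called gene against the majority and the 2 largest called differences between knockdowns. The members and lists were chosen with earlier results of these data known. Of 53 further probe sets of 28 list genes, 47 had the representative's sign over both knockdowns. Promoter windows are RefSeq's. Alternatives were other scalings, pseudocounts, filters, probe set means, no variance trend, 2-group fits, a replicate block and leaving out each array, and for signals as deposited, added after seeing the data, the block and leaving out each array.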

Additional observations from a re-analysis of the deposited data

Results flagged for a closer look

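4 members differed between the knockdowns by the direct test within 1 fit. Knockdown1 minus knockdown2 on the log2 scale was -1.27 for ELOVL6, 1.02 for GPAM, -0.69 for SREBF1 and -0.41 for FASN. The ELOVL6 and GPAM differences passed in every alternative run, and those of SREBF1 and FASN each failed in 12 of 30.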

How the results depend on the processing

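Values are in the order both knockdowns against control, knockdown1 against control, knockdown2 against control, knockdown1 against knockdown2. The main counts were 4256, 4351, 3608 and 3473 genes called and 5, 4, 3 and 4 members. Without the filter the member counts were 3, 3, 3 and 2, and without the variance trend 4, 3, 3 and 2; the cause was not tested. Leaving out 1 array gave 3 to 5, 2 to 5, 3 to 4 and 2 to 6 members and 3301 to 5369, 3573 to 5645, 2807 to 4944 and 2713 to 5156 genes, signals as deposited included. Centring on the tested genes gave 3050 higher and 2484 lower over both knockdowns. With a replicate block 4905, 4996, 4265 and 4147 genes and 5, 5, 3 and 4 members were called, FASN joining in knockdown1 (adjusted p = 0.0277). Same-numbered arrays correlated in their deviations at -0.02 to 0.13, against -0.12 to 0.09 for other pairs between groups. In all, 5 of 9 arrays correlated best with their own number. The labels state no pairing, and these overlapping ranges cannot decide whether the numbers pair the arrays. Leaving aside the alternatives added after seeing the data, 658 member values kept their side of the threshold, 39 lost a call and 10 gained one. No member's called value changed sign. Of the list genes only TALDO1 turned, from an uncalled value to 0.15 (adjusted p = 0.0237) in knockdown1 against knockdown2 under quantile normalization. Among list genes 155 such values lost a call and 98 gained one. INSIG2 and ARRDC4 over both knockdowns lost theirs in 5 and 6 of 29 alternatives.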
